A study of Mus musculus with 9 samples.

Results

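The genes described are the 5 neutrophil-attracting CXC chemokines *Cxcl1*, *Cxcl2*, *Cxcl3*, *Cxcl5* and *Ppbp* and their receptors *Cxcr1* and *Cxcr2*. They were taken by symbol, all 7 from the 17943 genes of a bulk RNA-seq count table of mouse skin. Libraries came from 5 control and 4 *Supt6*-KO mice, 1 library per numbered mouse, collected 10 days after the last injection. *Supt6*-KO mice were K14-CreERT; *Supt6* fl/fl and received tamoxifen, which activates a Cre recombinase expressed under the Keratin 14 promoter in basal keratinocytes and deletes SPT6, a histone chaperone and transcription elongation factor. Control mice were *Supt6* fl/fl, are labelled WT, carried no Cre and received corn oil, so deletion, Cre and tamoxifen cannot be told apart in this comparison. The age of the mice is not given in the labels. Totals were 29627341 to 30491197 estimated counts per control library and 30597189 to 30967107 per *Supt6*-KO library.

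The CXC chemokines of this group carry a Glu-Leu-Arg motif before their paired cysteines and draw neutrophils out of the blood along a gradient. Their shared receptor in the mouse is CXCR2, a G protein-coupled receptor carried mainly by neutrophils, while CXCR1 binds a narrower set. In skin, keratinocytes, fibroblasts and myeloid cells make the ligands after IL-1, TNF or injury, and the genes are classical targets of NF-κB.

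All 7 genes were higher on average in *Supt6*-KO skin, but by very different amounts. *Cxcl2*, *Cxcl3* and *Cxcl5* were close to undetected in control skin and rose by log2 fold changes of 8.82, 8.01 and 6.83. *Cxcl1*, the most abundant ligand of control skin, rose by 3.72, and *Cxcr2* by only 1.15, a value that depended on how the libraries were scaled. *Ppbp* rose by 1.80, but the groups overlapped, and without *Supt6*-KO mouse 4 the value was 0.78 and not called. A gene was called when edgeR's quasi-likelihood test gave a Benjamini-Hochberg adjusted p under 0.05 and the change was at least 2-fold. Over the 16426 genes tested, 20.9% were called higher and 24.9% lower, and the median log2 fold change was -0.07. Among the 7, *Cxcr1* passed the minimum of 10 counts over all mice only through its *Supt6*-KO counts. The count of 7 is a description of genes that were chosen with earlier results of these data known.

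*Supt6* itself was read first as a check of the labels. Levels are given as CPM, the counts of a gene per 1000000 counts of a library after scaling by TMM, a method that sets the bulk of genes level between libraries. *Supt6* was at 76.5 ± 17.2 CPM (SD, n = 5) in control and 25.7 ± 3.31 CPM (SD, n = 4) in *Supt6*-KO skin, with no overlap between groups. Its log2 fold change was -1.57 ± 0.18 (SE, adjusted p = 1.3e-05, edgeR's quasi-likelihood test). With a trend of counts on transcript length removed it was -0.75, under 2-fold and no longer called. Whole skin also holds cells that do not express Keratin 14.

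The labels name the ear as the tissue, while the study's text describes dorsal skin. Markers of ear cartilage summed to 314 to 809 CPM in control mice. The sum had a mean of 55.5 ± 4.42 CPM (SD, n = 4) in *Supt6*-KO mice, and all 5 markers that were tested were called lower. *Acan* was the most abundant of them over all mice, but *Col9a3* stood above it in every *Supt6*-KO mouse. Trunk Hox genes summed to at most 0.374 CPM in any mouse. Keratinocyte markers summed to 27200 to 30700 CPM in control and 38600 to 53800 CPM in *Supt6*-KO mice. The tissue sampled therefore held epidermis in every library and cartilage transcripts in differing amounts, and the part of this difference in the results was not tested. In bulk skin, fewer cells of a type and less RNA per cell cannot be told apart.

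The 5 ligand genes lie together on chromosome 5 of GRCm38, all on the + strand, in a run of 146641 bases that also holds *Pf4* and *Cxcl15*. Their order is *Cxcl5* (chr5:90759298-90761625), *Ppbp* (chr5:90768518-90770063), *Pf4*, *Cxcl3* (chr5:90786101-90788093), *Cxcl15*, *Cxcl1* (chr5:90891245-90893121) and *Cxcl2* (chr5:90903899-90905938). *Cxcr2* (chr1:74153994-74161246, + strand) and *Cxcr1* (chr1:74191785-74194708, - strand) are neighbours on chromosome 1. *Cxcl2* and *Cxcl3* are the closest pair, with 89.7% of their 300 aligned coding bases identical, against 78.8% for *Cxcl1* and *Cxcl2* and 72.0% for *Cxcr1* and *Cxcr2*. Only 11 of the 1010 windows of 100 bases in the *Cxcl2* transcript occur in another gene, *Cxcl3*, so few reads of that length could be assigned to either. The estimated counts of *Cxcr2* were not whole numbers in any of the 9 libraries, while those of the other members were whole. None of its 2947 windows of 100 bases occurs in another gene, and the origin of the fractions was not tested.

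The promoters of *Cxcl1*, *Cxcl2* and *Cxcl3* are shown because these were the ligands with the most counts in *Supt6*-KO skin and share letters in front of their starts, with *Ppbp* as a ligand of the same cluster that moved less and *Cxcr2* as the receptor. Each line gives the 110 bases before the RefSeq start, 5′ to 3′ on the gene's strand (RefSeq, GRCm38.p6), with capitals marking matches on either strand to GGGNNTTTCC, the letters of a κB element, or to the letters of a TATA-box element, written here as ATAAAAG. The windows are chr5:90891135-90891244 for *Cxcl1*, chr5:90903789-90903898 for *Cxcl2*, chr5:90785991-90786100 for *Cxcl3*, chr5:90768408-90768517 for *Ppbp* and chr1:74153884-74153993 for *Cxcr2*, each directly upstream of the first exon in RefSeq, while the last bases of the *Cxcl1*, *Cxcl2* and *Cxcr2* windows lie in the first exon of GENCODE.
Cxcl1: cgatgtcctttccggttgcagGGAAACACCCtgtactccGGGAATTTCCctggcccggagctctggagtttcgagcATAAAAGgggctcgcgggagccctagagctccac
Cxcl2: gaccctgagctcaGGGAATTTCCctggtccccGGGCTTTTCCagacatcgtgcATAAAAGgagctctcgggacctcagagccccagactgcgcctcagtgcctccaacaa
Cxcl3: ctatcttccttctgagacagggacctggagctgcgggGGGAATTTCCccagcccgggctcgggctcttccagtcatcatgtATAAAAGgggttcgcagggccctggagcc
Ppbp: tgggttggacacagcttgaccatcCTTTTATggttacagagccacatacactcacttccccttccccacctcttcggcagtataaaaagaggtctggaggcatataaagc
Cxcr2: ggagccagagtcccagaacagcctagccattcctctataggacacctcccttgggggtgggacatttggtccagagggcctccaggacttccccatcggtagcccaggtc

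The same κB letters, GGGAATTTCC, stood 71 to 62 bases before the start of *Cxcl1*, 97 to 88 before that of *Cxcl2* and 73 to 64 before that of *Cxcl3*. *Cxcl1* held a further match on the opposite strand, GGAAACACCC, and *Cxcl2* a further one, GGGCTTTTCC, on the same strand. ATAAAAG followed at 34 to 28 bases before the start of *Cxcl1* and 29 to 23 before that of *Cxcl3*. In *Cxcl2* it stood at 57 to 51, but the GENCODE start of that gene, at 90903871, lies upstream of the RefSeq start used here. In *Ppbp* the marked match was on the opposite strand, at 86 to 80. Nearer the *Ppbp* start, the unmarked letters gtataaaaagagg are close to ATAAAAG but do not match it. A line without a mark at that place may thus still hold a TATA-box element. The 250 bases before the starts of *Ppbp*, *Cxcr1* and *Cxcr2* held no κB match of these letters, and *Cxcl5* was not in the promoter table. Over 32851 promoters of the same length, 1.41% held the κB letters and 4.83% held ATAAAAG. These letters were chosen after the promoters were seen, the 2 motifs do not overlap in the lines above, and a match describes the sequence, not a bound site.

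*Cxcl2* encodes MIP-2, a strong neutrophil attractant made by myeloid cells and activated keratinocytes. Control mice 1 to 5 had 8, 8, 3, 5 and 1 *Cxcl2* counts, and *Supt6*-KO mice 1 to 4 had 835, 1459, 1991 and 1490. Every *Supt6*-KO mouse stood far above every control mouse, and mouse 1 was the lowest of the *Supt6*-KO group. Control skin averaged 0.135 ± 0.0837 CPM (SD, n = 5) and *Supt6*-KO skin 62.4 ± 23.9 CPM (SD, n = 4), for a log2 fold change of 8.82 ± 0.42 (SE, adjusted p = 8.4e-08, edgeR's quasi-likelihood test). In the exact permutation test over mice, two-sided, p was 0.0159, the smallest that 5 against 4 mice can give.

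*Cxcl3*, the closest relative of *Cxcl2*, encodes a further CXCR2 ligand. It had 6, 6, 1, 1 and 0 counts in control mice 1 to 5 and 263, 540, 632 and 443 counts in *Supt6*-KO mice 1 to 4. As for *Cxcl2*, *Supt6*-KO mouse 1 was the lowest of its group and mouse 3 the highest, and the groups did not overlap. The log2 fold change was 8.01 ± 0.55 (SE, adjusted p = 6.3e-07, edgeR's quasi-likelihood test; exact permutation p = 0.0159). The count of 0 in control mouse 5 allows a level of up to 0.0764 CPM, taken as 3 counts and covering counting error only.

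*Cxcl5* encodes LIX, which epithelial cells make in response to inflammatory cytokines. Its counts were 6, 2, 0, 1 and 2 in control mice 1 to 5 and 78, 97, 153 and 380 in *Supt6*-KO mice 1 to 4. Here *Supt6*-KO mouse 4 was the highest, and its lead over the other 3 set the wide spread of 7.14 ± 4.61 CPM (SD, n = 4). The log2 fold change was 6.83 ± 0.61 (SE, adjusted p = 3.0e-06, edgeR's quasi-likelihood test) and lay between 6.30 and 7.57 when each mouse was left out in turn.

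*Cxcl1* encodes KC, the ligand most readily measured in control skin. Control mice 1 to 5 had 55, 33, 49, 34 and 10 counts, and *Supt6*-KO mice 1 to 4 had 197, 242, 282 and 527. The groups did not overlap, control mouse 5 was lowest and *Supt6*-KO mouse 4 highest. The mean was 0.981 ± 0.479 CPM (SD, n = 5) in control and 12.9 ± 4.47 CPM (SD, n = 4) in *Supt6*-KO skin, with a log2 fold change of 3.72 ± 0.41 (SE, adjusted p = 1.0e-05, edgeR's quasi-likelihood test). When a trend of counts on transcript length was removed from each library, the value was 2.86 and stayed called.

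*Ppbp* encodes pro-platelet basic protein, the precursor of the neutrophil-activating peptide stored in platelet granules. Its counts were 3, 5, 5, 2 and 11 in control mice 1 to 5 and 4, 6, 6 and 33 in *Supt6*-KO mice 1 to 4. The groups overlapped, and 1 mouse, *Supt6*-KO mouse 4, held most of the *Supt6*-KO counts. The log2 fold change of 1.80 ± 0.63 (SE, adjusted p = 0.024, edgeR's quasi-likelihood test) fell to 0.78 (adjusted p = 0.22) without that mouse, and the call was also lost without control mouse 1 (1.65) or control mouse 4 (1.60). Beside 20.9% higher and 24.9% lower of all genes tested, 2 of 5 platelet markers tested were called higher, 1 lower and 2 neither. Their median log2 fold change was -0.11, but 0.62 without control mouse 1, 0.11 without *Supt6*-KO mouse 1 and 0.47 under a stricter filter of 10 counts per mouse. *Pf4*, the platelet factor gene next to *Ppbp*, was the most abundant of these markers over all mice, at 54.6% of their sum. In control skin alone *Gp1bb* averaged 10.2 CPM and *Pf4* 9.53 CPM. *Pf4* rose by 1.65, and *Itga2b*, an integrin chain of platelets, by 1.15. Both calls were lost with library totals, and that of *Pf4* with the length trend removed (0.40). *Gp1ba*, a platelet glycoprotein, fell by 1.08, a call lost without control mouse 5 (-0.99) or *Supt6*-KO mouse 4 (-0.91) and, just under 2-fold (adjusted p = 0.00257, edgeR's quasi-likelihood test), with the length trend removed, and *Gp9* and *Treml1* had too few counts to test. The markers summed to 19.5 to 31.0 CPM in control and 39.7 to 54.2 CPM in *Supt6*-KO mice. Without *Pf4* the sums were 13.9 to 16.4 CPM and 14.1 to 18.5 CPM, which overlap. Their part in the *Ppbp* value was not tested.

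**Figure D1:**
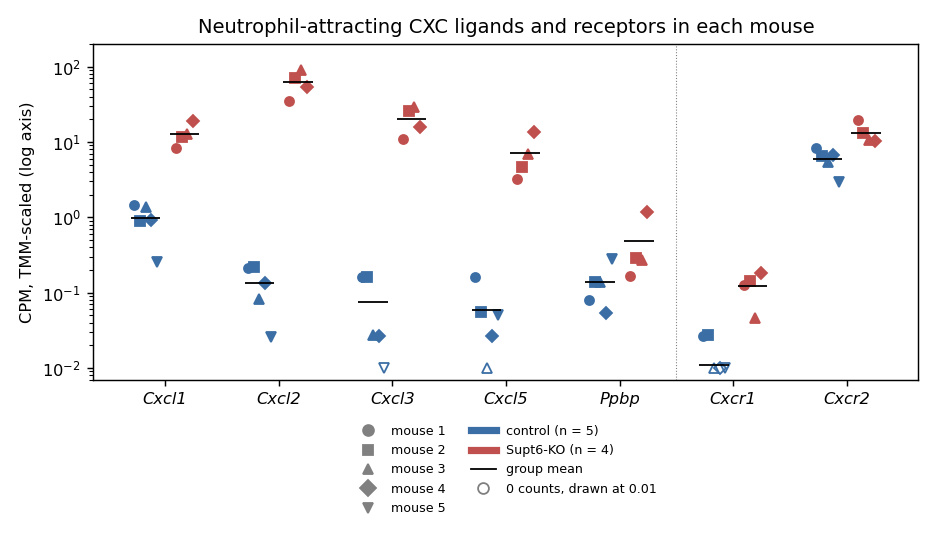
Each point is the TMM-scaled CPM of a gene in 1 mouse, on a log axis, with control mice in blue and *Supt6*-KO mice in red and a black line at the group mean. After this scaling the 4 *Supt6*-KO mice lie above all 5 control mice for every gene except *Ppbp*, where *Supt6*-KO mouse 4 stands alone at 1.19 CPM. For *Cxcr1*, *Supt6*-KO mouse 3 and control mice 1 and 2 each had 1 count, so only the scaling sets them apart. For *Cxcr2* the groups overlapped in counts.

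*Cxcr2* encodes the receptor through which these ligands act on neutrophils. Its estimated counts, rounded, were 315, 238, 197, 245 and 117 in control mice 1 to 5 and 464, 275, 232 and 284 in *Supt6*-KO mice 1 to 4. In counts, and in CPM of the unscaled library totals (3.92 to 10.5 in control and 7.49 to 15.1 in *Supt6*-KO mice), the groups overlapped. After TMM scaling they did not, with 2.98 to 8.42 CPM in control and 10.2 to 19.4 CPM in *Supt6*-KO mice. The log2 fold change was 1.15 ± 0.28 (SE, adjusted p = 0.0034, edgeR's quasi-likelihood test; exact permutation p = 0.0159). With library totals in place of TMM it was 0.46 (adjusted p = 0.16), and without control mouse 5 (0.98) or *Supt6*-KO mouse 1 (0.92) it was under 2-fold. Library totals also moved the median over all tested genes from -0.07 to -0.76 on the log2 scale, and *Cxcr2* stood above that median under either scaling. TPM, a length-normalized level given by the authors for 6 of the libraries, were 2.06 to 4.92 in control mice and 2.98 in *Supt6*-KO mouse 4, within the control range.

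*Cxcr1* encodes the second receptor, which in the mouse binds few of these ligands. It had 1, 1, 0, 0 and 0 counts in control mice 1 to 5 and 3, 3, 1 and 5 in *Supt6*-KO mice 1 to 4. Over each group these were 2 and 12 counts, a CPM ratio of 11.8 with an exact 95% interval of 2.63 to 109 that covers counting error only. Its call (adjusted p = 0.0043, edgeR's quasi-likelihood test) carries no weight of its own, because the gene entered the test only through the group where it was high, and it was not tested without *Supt6*-KO mouse 4, where its counts no longer reached 10. Of the other 6 genes, 5 had every *Supt6*-KO mouse above every control mouse in CPM, against 28.9% of all genes tested.

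Levels were compared between genes per kilobase of transcript, as CPM per kb. In control skin the order was *Cxcr2* at 1.97 ± 0.656, *Cxcl1* at 1.03 ± 0.503, *Ppbp* at 0.127 ± 0.0807, *Cxcl2* at 0.122 ± 0.0754, *Cxcl3* at 0.0747 ± 0.0785, *Cxcl5* at 0.0372 ± 0.0387 and *Cxcr1* at 0.00746 ± 0.0102 CPM per kb (SD, n = 5). In this measure *Cxcr2* transcripts stood above those of each ligand in all 5 control mice, while *Cxcr1* was last on average. In the authors' TPM, *Cxcl1* was above *Cxcr2* in control mouse 3 (3.1 against 2.88) and below it in the other control mice. *Ppbp* and *Cxcl2* did not differ beyond their spread, *Ppbp* being the higher in 2 of 5 mice. In *Supt6*-KO skin the order was *Cxcl2* at 56.2 ± 21.6, *Cxcl3* at 20.1 ± 8.26, *Cxcl1* at 13.6 ± 4.69, *Cxcl5* at 4.53 ± 2.92, *Cxcr2* at 4.38 ± 1.39, *Ppbp* at 0.442 ± 0.438 and *Cxcr1* at 0.0852 ± 0.039 CPM per kb (SD, n = 4). *Cxcl2* exceeded *Cxcl3* in 4 of 4 mice and *Cxcl3* exceeded *Cxcl1* in 3 of 4, mouse 4 being the exception. *Cxcl5* and *Cxcr2* did not differ beyond their spread.

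The make-up of the ligand transcripts changed with the total. Per transcript length, *Cxcl1* made up 46.0% to 86.1% (median 74.6%) of the 5 ligands in control mice and 10.5% to 21.2% in *Supt6*-KO mice. *Cxcl2* took 3.95% to 13.5% in control mice and 51.6% to 63.8% in *Supt6*-KO mice, and so replaced *Cxcl1* as the leading ligand in every mouse. The control shares rest on few counts, 24 to 78 per mouse, and those of *Supt6*-KO mice on 1377 to 3064.

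Ratios between ligands of the same library do not depend on scaling, and 10 pairs were compared. The ratio of *Cxcl2* to *Cxcl1* moved from -2.79 ± 0.66 (SD, n = 5) to 2.25 ± 0.59 (SD, n = 4) on the log2 scale with 0.5 counts added, a difference of 5.04 (exact permutation test, two-sided, p = 0.0159, adjusted p = 0.0265). *Cxcl3* gained on *Cxcl1* by 4.51 and *Cxcl5* by 3.01, each with adjusted p = 0.0265 in the exact permutation test. The ratio of *Cxcl3* to *Cxcl2* missed the threshold: it was -1.09 ± 0.68 in control and -1.63 ± 0.13 in *Supt6*-KO mice, a difference of -0.53 (exact permutation adjusted p = 0.206). The groups overlapped for this ratio, which ranged from -1.87 to -0.39 in control and from -1.75 to -1.43 in *Supt6*-KO mice. *Cxcl5* against *Cxcl3* also missed the threshold (difference -1.49, exact permutation adjusted p = 0.106), and the other 8 pairs passed it. Both depended on the counts added: with 5 in place of 0.5 all 10 pairs passed. The difference of *Cxcl3* against *Cxcl2* was then -1.24 (exact permutation adjusted p = 0.0198), and the adjusted p of *Cxcl5* against *Cxcl3* was 0.0476 in the exact permutation test. Control counts of these genes are about as small as the 5 added. The control mean of *Cxcl3* against *Cxcl2* thereby moved to -0.38, while the *Supt6*-KO mean was -1.62, so this result carries no weight of its own. *Ppbp* lost ground to each of the other 4 ligands, with differences of -2.34 to -7.38 on the log2 scale. With any *Supt6*-KO mouse left out, the smallest exact permutation p is 0.0357. After adjustment over 10 pairs, that value passes only if most pairs reach it together. No pair passed without mouse 1, 2 or 3 and 9 passed without mouse 4, and these counts do not measure how far mouse 4 differs.

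**Figure D2:**
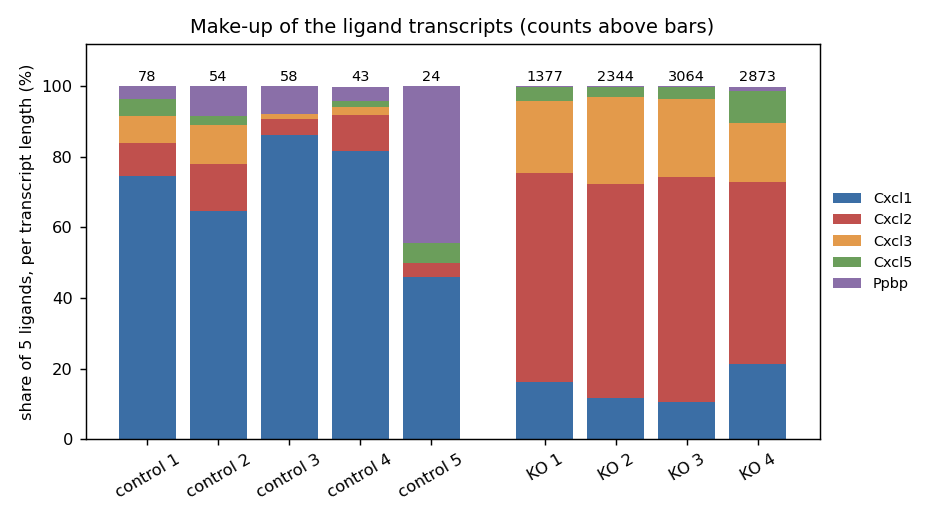
Bars give the share of each ligand among the 5 ligand transcripts of a mouse, per transcript length, in percent, with the summed ligand counts above each bar. *Cxcl1* fills most of 4 control bars and leads in control mouse 5, which has only 24 counts, while *Cxcl2* leads in all 4 *Supt6*-KO mice.

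Neutrophil markers were set beside the receptor, since neutrophils carry it. In control skin *Cxcr2* averaged 6.0 CPM and all 14 markers together 3.96 CPM, and which cells held its transcripts there was not tested. Of 13 markers tested, 8 were called higher, 1 lower and 4 neither, beside 20.9% higher and 24.9% lower of all genes tested. The markers had a median log2 fold change of 4.56, or 3.46 with the genes at 0 in all controls placed at their lower bound. Of the 8, *Ly6g*, *Ngp*, *Ltf* and *Mrgpra2b* reached the minimum of 10 counts only through their *Supt6*-KO counts, and among the other 9 markers 4 were called higher and 1 lower, with a median of 0.39. *Retnlg*, a secreted resistin-like protein of mature neutrophils and the most abundant marker over all mice at 45.8% of the sum, rose by 6.59. In control skin *Retnlg* averaged only 0.212 CPM, and *Padi4* led the markers at 1.84 CPM. *Mrgpra2b*, a receptor of mature mouse neutrophils, had 0 counts in all 5 control mice and 22, 13, 28 and 20 counts in *Supt6*-KO mice 1 to 4. *Ltf*, the lactoferrin gene of secondary granules, also had 0 counts in all controls and 3, 3, 9 and 16 in *Supt6*-KO mice. Among genes of the primary granules, which developing neutrophils transcribe in the bone marrow, *Mpo* fell by 4.62 on the log2 scale, from 4 to 26 counts in control mice to 1, 0, 0 and 0, *Prtn3* and *Ctsg* were not called, and *Elane* had too few counts to test. *Camp*, a gene of later granules, and *Padi4*, a histone-modifying enzyme of neutrophils, were not called either, at 0.10 and 0.39, and no difference between granule classes was tested. *Ly6g*, a surface marker of mouse neutrophils, had 4, 0, 15 and 1 counts in *Supt6*-KO mice and 1 count over the control mice.

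The markers summed to 6.77, 2.38, 3.82, 3.52 and 3.34 CPM in control mice 1 to 5 and to 24.2, 26.6, 84.9 and 27.1 CPM in *Supt6*-KO mice 1 to 4. *Cxcr2* did not follow this order within the *Supt6*-KO group: it was highest in mouse 1, where the markers were lowest, and mouse 3 with the most marker transcripts had 10.6 CPM of *Cxcr2*. Within libraries, the log2 ratio of *Cxcr2* counts to the summed marker counts fell from 0.60 ± 0.61 (SD, n = 5) to -1.43 ± 1.14 (SD, n = 4), a difference of -2.04 (exact permutation test, two-sided, p = 0.0159). Without *Retnlg* the difference was -1.21 and the exact permutation p was 0.0952. This ratio is not a level of receptor per neutrophil, because the cells that held *Cxcr2* transcripts were not tested.

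**Figure D3:**
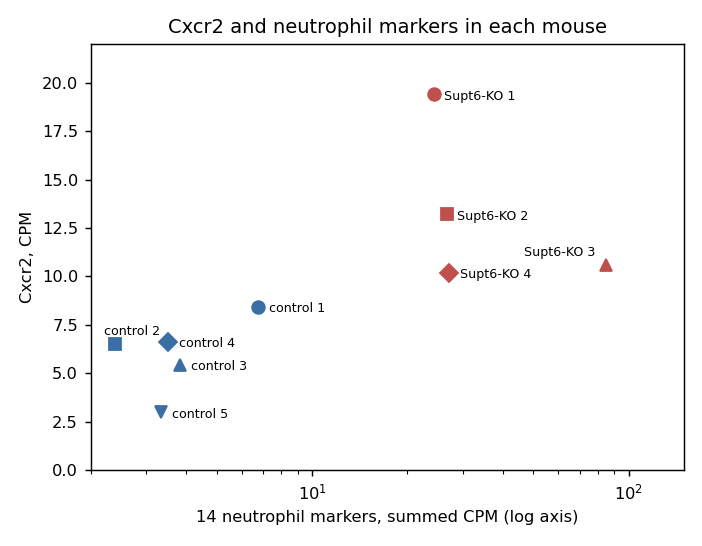
Each point is 1 mouse, with the summed CPM of 14 neutrophil markers on a log axis and the CPM of *Cxcr2* on a linear axis, control mice in blue and *Supt6*-KO mice in red. *Supt6*-KO mice lie above and to the right of the control mice, and *Supt6*-KO mouse 3, with 84.9 CPM of markers, has less *Cxcr2* than mouse 1 with 24.2 CPM.

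Of 13 genes that relay the CXCR2 signal inside the cell, 0 were called higher and 2 lower by edgeR's quasi-likelihood test and by DESeq2. In edgeR 20.9% of all genes tested were called higher and 24.9% lower, and the median log2 fold change of the list was -0.82. Without *Supt6*-KO mouse 4, 4 of the 13 were called lower. At an unadjusted p under 0.05, 2 were higher and 7 lower in both tools. With library totals 7 were called lower, with a median of -1.47, and with the length trend removed 0 were called in either direction, with a median of -0.05. *Plcb2*, a phospholipase C activated by G proteins in blood cells, fell by 1.49, and *Prex1*, a Rac activator of neutrophils, fell by 1.22. *Gnb1*, a G protein β subunit and the most abundant of the list, was at 226 ± 13.9 CPM (SD, n = 5) in control and 295 ± 32.1 CPM (SD, n = 4) in *Supt6*-KO skin and was not called.

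Among the other CXC ligands and receptors, 7 of 14 tested were called higher and 0 lower by edgeR's quasi-likelihood test and by DESeq2. In edgeR 20.9% of all genes tested were called higher and 24.9% lower, and the median log2 fold change of the list was 1.29. At an unadjusted p under 0.05, 8 were higher and 3 lower in edgeR, and with library totals 5 were called higher and 3 lower. *Cxcr5* reached the minimum of 10 counts only through its *Supt6*-KO counts, and 6 of the other 13 were called higher, with a median of 0.93. *Cxcl9* and *Cxcl10*, interferon-induced ligands of CXCR3 that draw T cells, rose by 3.51 ± 0.72 and 3.50 ± 0.62 (SE). *Supt6*-KO mouse 4 stood low for both: *Cxcl9* was at 2.01 CPM there, below control mouse 4 at 5.0 CPM, and at 19.8 to 46.8 CPM in the other *Supt6*-KO mice. *Cxcl10* was at 2.37 CPM in that mouse and at 10.9 to 28.4 CPM in the other 3. *Cxcl14*, the most abundant of these genes over all mice and a constitutive chemokine of epithelium, was not called. It was at 94.4 ± 21.8 CPM (SD, n = 5) in control and 54.0 ± 11.9 CPM (SD, n = 4) in *Supt6*-KO skin. In *Supt6*-KO skin *Cxcl12* averaged slightly more, at 57.9 ± 14.6 CPM (SD, n = 4). *Cxcl15*, inside the chromosome 5 cluster, had 1 count over the 9 mice and *Cxcl17* had 5 counts in control and 3 in *Supt6*-KO mice, and neither was tested. In the cluster, the largest changes thus stood at *Cxcl2*, *Cxcl3* and *Cxcl5*, while *Ppbp* and *Pf4* between them rose by 1.80 and 1.65.

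**Figure D4:**
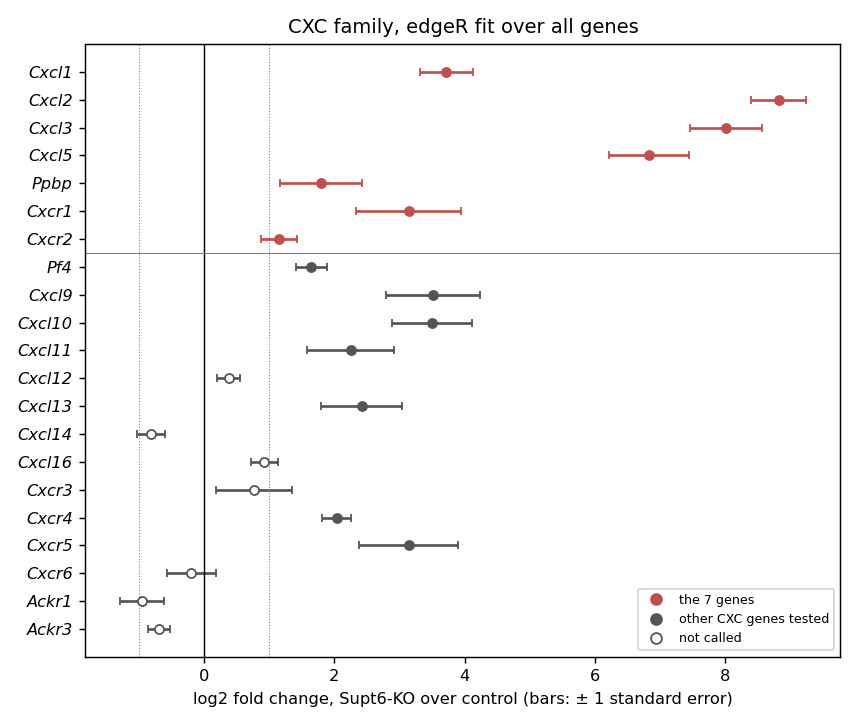
Points give the log2 fold change of each tested CXC gene, *Supt6*-KO over control, with bars of 1 standard error from edgeR's fit and open points for genes not called. *Cxcl2*, *Cxcl3* and *Cxcl5* lie beyond 6, and the other CXC genes below 4.

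Of 9 cytokine genes listed as acting upstream of neutrophil recruitment (IL-1, IL-36, TNF, IL-6 and colony-stimulating factor genes), 9 were called higher, beside 20.9% of all genes tested. The list's median log2 fold change was 4.33, and with library totals 8 of the 9 were called higher. Other inducers of these ligands were not in the list. *Csf3* reached the minimum of 10 counts only through its *Supt6*-KO counts, and the other 8 had a median of 3.48. *Csf3*, which encodes the granulocyte growth factor G-CSF, rose by 7.63 ± 0.76 (SE, adjusted p = 5.6e-06, edgeR's quasi-likelihood test). *Il1b*, the inflammatory cytokine IL-1β, was at 0.561 ± 0.262 CPM (SD, n = 5) in control and 76.6 ± 33.6 CPM (SD, n = 4) in *Supt6*-KO skin, with a log2 fold change of 7.09 ± 0.38 (SE, adjusted p = 1.5e-07, edgeR's quasi-likelihood test). *Il36a*, listed as *Il1f6*, is an epidermal cytokine of the IL-1 family. It was the most abundant of the list on average in *Supt6*-KO skin (850 CPM). *Il1f9* led in control skin (85.5 against 9.76 CPM) and in *Supt6*-KO mouse 4 (335 against 214 CPM). *Il36a* had 232 to 511 counts in control mice. It had 20197, 24174, 25840 and 5950 counts in *Supt6*-KO mice 1 to 4 and rose by 6.44 ± 0.51 (SE). Mouse 4 was thus the lowest of its group for *Il36a* and the highest for *Cxcl1*, *Cxcl5* and *Ppbp*.

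Of 11 genes of NF-κB factors and their inhibitors, 2 were called higher, 3 lower and 6 neither, near the 20.9% and 24.9% of all genes tested, with a median log2 fold change of -0.62 (with library totals 0 higher and 7 lower). *Bcl3* and *Nfkbiz*, atypical IκB proteins that act in the nucleus with NF-κB, rose by 1.57 and 1.17. *Rela*, which encodes the p65 subunit, fell by 1.36, and *Nfkb2*, the p100 precursor, fell by 1.35. The third lower gene was *Tnfaip3*, the feedback inhibitor A20, at -1.04. Its call was lost with DESeq2 (-0.98), with the length trend removed (-0.56) and without control mouse 1 (-0.95) or *Supt6*-KO mouse 3 (-0.99). The call of *Nfkbiz* was lost without *Supt6*-KO mouse 2 (0.99). *Nfkbia*, the IκBα gene and the most abundant, was at 135 ± 26.0 CPM (SD, n = 5) in control and 90.5 ± 14.7 CPM (SD, n = 4) in *Supt6*-KO skin and was not called. These are transcript levels, and the activity of NF-κB was not measured in these libraries.

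Chemokine mRNAs such as that of *Cxcl1* carry AU-rich elements bound by decay factors. Of 8 genes of that machinery, 1 was called higher, 2 lower and 5 neither, near the 20.9% higher and 24.9% lower of all genes tested. The list's median log2 fold change was -0.35, which was 0.09 with the length trend removed. With library totals 0 were called higher and 4 lower, and the median was -1.04. *Tia1*, an RNA-binding translational silencer, rose by 1.61, a call lost with library totals. *Khsrp*, a decay-promoting protein, fell by 1.79, and *Zfp36l2*, a relative of tristetraprolin and the most abundant of the list, fell by 1.12, a call lost with the length trend removed.

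Adhesion and rolling molecules, through which neutrophils leave the vessel, were read as a list of 9. Of these, 1 was called higher, 1 lower and 7 neither, beside 20.9% higher and 24.9% lower of all genes tested. The list's median log2 fold change was 0.09, which was -0.62 with library totals. *Itgam*, the CD11b integrin chain of myeloid cells, rose by 1.06, a call lost with library totals (0.36) and, just under 2-fold, with upper-quartile factors (0.97) or without control mouse 2 (0.98) or 3 (0.99). *Selplg*, the P-selectin ligand, fell by 1.07, and this call was lost without control mouse 5 or *Supt6*-KO mouse 2 (-0.96). *Icam1*, the endothelial ligand of leukocyte integrins and the most abundant, was at 12.5 ± 2.09 CPM (SD, n = 5) in control and 19.6 ± 2.91 CPM (SD, n = 4) in *Supt6*-KO skin and was not called.

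Other routes that attract neutrophils were read in the same way. Of 8 genes, 3 were called higher, 1 lower and 4 neither, beside 20.9% higher and 24.9% lower of all genes tested. The list's median log2 fold change was 0.66, which was -0.03 with library totals. *Fpr2* and *Fpr1*, the formyl peptide receptors of phagocytes, rose by 6.46 and 5.87, and *Hc*, the complement C5 gene, rose by 2.81. *Fpr1* was tested only through its *Supt6*-KO counts. Of the other 7 genes, 2 were called higher and 1 lower, with a median of 0.48. *Alox5*, the enzyme that starts leukotriene synthesis, fell by 3.11 on the log2 scale. *Lta4h*, which makes leukotriene B4 and was the most abundant, was at 50.5 ± 1.55 CPM (SD, n = 5) and 49.4 ± 8.22 CPM (SD, n = 4).

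Macrophages and keratinocytes can make the same ligands, and their markers were read beside them. Of 10 macrophage and monocyte markers, 6 were called higher, 1 lower and 3 neither, beside 20.9% higher and 24.9% lower of all genes tested. The list's median log2 fold change was 1.06, and with library totals 2 of the 10 were called higher. *Cd14*, a lipopolysaccharide co-receptor, rose by 4.05, and *Mrc1*, the mannose receptor and the most abundant over all mice, rose by 1.89. *Csf1r*, the receptor for macrophage growth factor, fell by 1.83. In control skin *Csf1r* was the most abundant at 41.9 CPM, against 21.7 CPM for *Mrc1*. Summed, these markers were at 163, 139, 104, 157 and 262 CPM in control mice 1 to 5 and 328, 318, 391 and 374 CPM in *Supt6*-KO mice 1 to 4. No marker of the list was at 0 in the controls. Of 8 keratinocyte markers, 2 were called higher, 1 lower and 5 neither, with a median of -0.04, beside 20.9% higher and 24.9% lower and a median of -0.07 over all genes tested. Without *Supt6*-KO mouse 4, 2 of the 8 were called higher and 3 lower. *Krt1*, a keratin of differentiating layers, rose by 3.65, *Perp*, a desmosome protein, by 1.55 (lost with library totals), and *Trp63*, the master factor of basal keratinocytes, fell by 1.21 (-0.67 and not called with the length trend removed), while *Krt10*, the most abundant, was not called. The part of either cell type in the ligand transcripts was not tested.

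For *Cxcl1*, *Cxcl2*, *Cxcl3*, *Cxcl5* and *Cxcr2*, but not for the low *Ppbp* and *Cxcr1*, the genes whose levels followed most closely were taken from 13894 genes over the 9 mice, with Pearson's r on log2(CPM + 0.5). All points share the difference between the groups, so r describes that contrast and carries no p. *Trem1*, a receptor that amplifies myeloid inflammation, and the chemokine gene *Ccl3* stood among the 3 nearest to both *Cxcl2* (r of 0.999 and 0.9988) and *Cxcl3* (0.9988 and 0.9985). *Ada*, adenosine deaminase, was the remaining gene for *Cxcl2* (0.9988), and *Cxcl2* itself for *Cxcl3* (0.9987). The log2 fold changes of *Trem1* and *Ccl3* were 7.07 and 7.96. *Cxcl1* was followed by *Tiparp* (0.9969), *Zcchc10* (0.9941) and *Mphosph6* (0.9927), all of smaller change, with *Tiparp* at a log2 fold change of 1.91. *Cxcl5* was followed by *Nfe2l2* (0.9974), which encodes the oxidative stress factor NRF2, *Osm* (0.996), which encodes the cytokine oncostatin M, and *Tmsb10* (0.9957). For *Cxcr2* the nearest were *Ccdc174* (0.9766), *Rhov* (0.9659) and *Zfpl1* (0.9645), whose own log2 fold changes were 0.24 to 0.59.

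The scaling of the libraries changed the calls of *Ppbp* and *Cxcr2* and of no other member. TMM factors were 1.198 to 1.315 in control and 0.6738 to 0.9098 in *Supt6*-KO libraries, so a *Supt6*-KO count weighs more than a control count. *Cxcl1*, *Cxcl2*, *Cxcl3* and *Cxcl5* stayed called wherever an alternative tested them, at 2.86 to 3.91, 8.02 to 9.05, 7.14 to 8.47 and 6.22 to 7.57. *Ppbp* lost its call with library totals (1.18) and with the length trend removed (1.06), and *Cxcr2* with library totals.

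**Figure D5:**
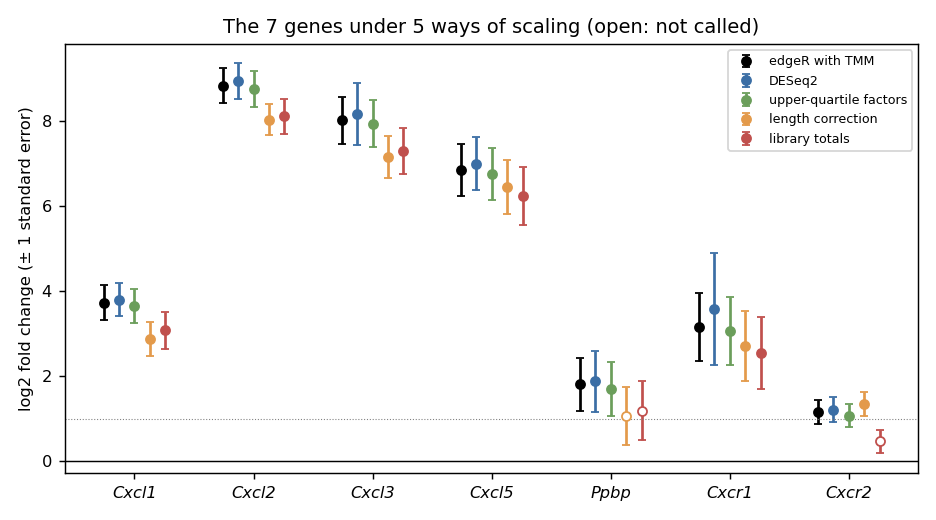
Points give the log2 fold change of each gene, *Supt6*-KO over control, with bars of 1 standard error, under 5 ways of scaling or testing, and open points are not called. The ligands *Cxcl1*, *Cxcl2*, *Cxcl3* and *Cxcl5* stay above 2.8 in all 5, while *Ppbp* and *Cxcr2* cross the call limit.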

How the data were processed

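Whole skin of 5 control and 4 *Supt6*-KO mice was sequenced as bulk RNA. The authors deposited estimated counts per gene, made with RSEM and not normalized between samples, and TPM values for 6 of the 9 libraries. Submitters' processing notes name HISAT, Bowtie2 2.3.4.3, RSEM 1.3.1, DESeq2 1.4.5 and mm10, and the annotation release is not given in the sources used here. Estimated counts were rounded, and 16426 of 17943 genes with at least 10 counts over all mice were fitted with edgeR 4.0.16 (TMM, quasi-likelihood, Benjamini-Hochberg over all genes tested). A call needed an adjusted p under 0.05 and a 2-fold change. Of the identifiers, 17917 matched RefSeq. Transcript lengths came from GENCODE (99.5% of genes). Exact permutation tests were two-sided. Intervals and floors cover counting error only.

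Members and gene lists were chosen with earlier results of these data known. Named were the members and, in each list, at most the 2 called genes with the largest rise and fall. Each list's most abundant gene over all mice, further markers needed to describe a list, and the 3 genes closest to a member by correlation were also named. Results were recomputed with each mouse left out, with DESeq2 1.42.0, with a replicate block, with a length trend removed, against a 2-fold change, with other filters, and with upper-quartile factors or library totals as the scaling. The fits were tested on simulated data, and the outcome is not given here. Labels give no batch, and each library is 1 numbered mouse. An adhesion gene is not reported here and was left out of its list.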

Additional observations from a re-analysis of the deposited data

Results flagged for a closer look

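In 3 of 44 groups examined, 1 mouse stood apart from the others of its group by Dixon's criterion at the 95% level, where chance gives about 2.2. *Ppbp* was at 1.19 CPM in *Supt6*-KO mouse 4 and at 0.167 to 0.288 CPM in the other *Supt6*-KO mice. The summed neutrophil markers were at 84.9 CPM in *Supt6*-KO mouse 3 and at 24.2 to 27.1 CPM in the other 3. The summed keratinocyte markers were at 38600 CPM in *Supt6*-KO mouse 4 and at 51500 to 53800 CPM in the others.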

How the results depend on the processing

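With library totals in place of TMM factors, 1470 genes were called higher and 6802 lower in *Supt6*-KO skin, against 3427 and 4088, and a test against a 2-fold change called 2271 higher. With at least 10 counts in every mouse, 2 of the 7 genes were tested, *Cxcl1* and *Cxcr2*, and 2 were called higher. The number of ligand pairs that differed was 0 to 9 when each mouse was left out in turn, and the ratio of *Cxcr2* to the neutrophil markers was -1.21 without *Retnlg*. Leaving out each mouse gave -2.41 to -1.52 for that ratio, 3248 to 3476 genes called higher and 3845 to 4204 lower. With the replicate block, *Cxcr2* was at 0.95 and under the 2-fold limit, and 3134 genes were called higher and 3834 lower. Same-numbered mice deviated together only weakly (mean r 0.0793 over 4 pairs, lowest -0.00856). Mice of different numbers had a mean r of -0.0165 (-0.178 to 0.178). So few pairs cannot exclude that the numbers pair the mice, and the labels do not state a pairing. No other call among the 7 genes changed under the block. In the test against a 2-fold change neither *Ppbp* nor *Cxcr2* was called, and *Supt6* was at -0.75 and not called with the length trend removed. With 5 counts added, a number as large as many of the control counts, 10 ligand pairs differed. *Cxcl2*, *Cxcl3*, *Cxcl5*, *Ppbp* and *Cxcr1* could not be tested with at least 10 counts in every mouse. No fold change of the 7 genes changed sign. Over 17 alternatives the list medians that changed sign were those of adhesion and other attractant routes (library totals), decay (length trend), keratinocytes (DESeq2, length trend) and platelets (3 alternatives, -0.80 to 0.62 over all 17). Counts of 0 to 11 per control mouse limit *Cxcl2*, *Cxcl3*, *Cxcl5*, *Ppbp* and *Cxcr1*: their folds rest on few control counts.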
